A study of Mus musculus with 2 samples.

Results

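The 9 genes described here encode the CD8 coreceptor (Cd8a, Cd8b1), the CD3 signalling chains (Cd3d, Cd3e, Cd3g), the constant regions of the T cell receptor (Trac, Trbc1, Trbc2) and the kinase Lck. They were taken by symbol from the 32285 genes of both count matrices, and all 9 were present. The study isolated CD8 T cells from mammary fat, the fatty tissue in which the milk ducts grow, and measured their RNA cell by cell with a Chromium 5′ gene expression kit. The parous library came from mice that had been through several pregnancies, and the virgin library from mice that had been through none. Each library pooled the 4th mammary fat pads of at least 5 untreated C57BL/6 mice, and live cells were sorted as CD45+, TCRB+ and CD8a+. The gate thus required the CD8 alpha and receptor beta proteins in both libraries. With 1 library a group there is no replicate check, and no test was made. Every interval (CI) is an exact 95% one for counting error, which leaves out how mice and preparations vary. Intervals on RNA counts summed over cells also leave out how the cells vary.

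A T cell receptor of the common type pairs an alpha chain, joined to the constant region Trac, with a beta chain joined to Trbc1 or Trbc2. It signals through CD3 gamma, delta and epsilon and through the zeta chain Cd247. The coreceptor binds MHC class I and brings Lck to the receptor, which Lck phosphorylates. CD8 on conventional killer T cells is a dimer of alpha with beta. A dimer of alpha with alpha, known from intraepithelial T cells of the mouse gut, needs no Cd8b1.

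The filtered cells numbered 3019 of 4927 parous barcodes and 2511 of 2526 virgin barcodes, with medians of 4108 and 7001 UMIs, the molecular tags that let each captured RNA be counted once. The libraries shared 18 barcode sequences, 14 of them among the kept cells. After a myeloid-like cluster of 28 parous and 9 virgin cells was set aside, 2991 parous and 2502 virgin CD8 T cells remained, in 11 clusters built without any of the 9 genes. Because the virgin cells were sequenced to a higher UMI count, shares of cells with a UMI are given after each cell was thinned at random to 1400 UMIs, which kept 2866 parous and 2488 virgin cells. Levels are UMIs per 1000000 (CPM) over the summed UMIs of a group of cells, and they are compared between cells, never between genes. The clusters took very different parts of the libraries. The naive or central memory-like cluster (cluster 0) took up 16.2% of the parous cells and 39.2% of the virgin ones. A tissue-resident memory-like cluster led by Adgrg1, Cdh1 and Car2 (cluster 4) held 15.3% and 0.799%, or 459 and 20 cells. A cluster led by Gzmc, Fcer1g and Tyrobp (cluster 5) held 10.8% and 0.0799%, or 322 and 2 cells. It carried many residency markers, but the leading genes went against that name, and it is called the Fcer1g Tyrobp cluster. It was picked as the cluster with the highest summed Fcer1g and Tyrobp CPM among clusters of at least 50 CD8 T cells. Its high levels of these genes thus follow from the choice. As clusters 4 and 5 came almost wholly from the parous library, state and library cannot be told apart in them.

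On the GRCm38 assembly, which mm10 names, with GENCODE M21 gene models, Cd8b1 (ENSMUSG00000053044) lies at chr6:71322788-71337494 and Cd8a (ENSMUSG00000053977) at chr6:71373427-71379173, both on the plus strand and 35.9 kb apart. Cd3g (ENSMUSG00000002033, chr9:44969572-44980431, minus strand) and Cd3d (ENSMUSG00000032094, chr9:44981786-44987339, plus strand) start 1.35 kb apart and run in opposite directions. Cd3e (ENSMUSG00000032093, chr9:44998740-45009627, minus strand) ends 11.4 kb beyond Cd3d. Lck (ENSMUSG00000000409) lies at chr4:129548344-129573641 on the minus strand, and Trac (ENSMUSG00000076928) at chr14:54220521-54224206 on the plus strand. Trbc1 (ENSMUSG00000076490, chr6:41538218-41539881) and Trbc2 (ENSMUSG00000076498, chr6:41546730-41548352) follow each other on the plus strand, 6.85 kb apart.

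The coding sequences of Trbc1 and Trbc2 are shown because they set how well the counts of these genes can be told apart. Each is 521 bases long, counted from the first base of the transcript model, and they differ at 23 of these (95.6% identity). Only 1 difference, C260A (Trbc1 base, position, Trbc2 base), falls in the first 360 bases. The other 22 fall in the last 161 bases, printed here 5′ to 3′ with the differing bases in capitals.
Trbc1: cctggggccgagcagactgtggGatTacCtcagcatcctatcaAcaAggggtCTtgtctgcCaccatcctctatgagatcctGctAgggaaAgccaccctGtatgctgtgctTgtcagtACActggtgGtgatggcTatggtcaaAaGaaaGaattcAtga
Trbc2: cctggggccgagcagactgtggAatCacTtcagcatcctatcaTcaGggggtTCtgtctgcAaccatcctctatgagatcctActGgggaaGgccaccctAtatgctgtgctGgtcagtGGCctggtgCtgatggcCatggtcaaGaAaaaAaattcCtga
A read from the first 259 bases matches both genes equally. How the authors' counting treated such reads is not given in the sources used here, so the Trbc1 and Trbc2 counts are uncertain.

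Over whole libraries Cd8b1, which encodes the CD8 beta chain, lay further apart than Cd8a. Its level was 873 CPM (CI 857 to 889) in parous cells and 1164 CPM (CI 1149 to 1179) in virgin cells, a log2 ratio of -0.41 or a 1.33-fold lower parous level. At 1400 UMIs, 1764 of 2866 parous cells (61.5%, CI 59.7 to 63.3%) had it, against 1876 of 2488 virgin cells (75.4%, CI 73.7 to 77.1%). Without thinning 79.9% of parous and 95.3% of virgin cells had it. Cd8a, the alpha chain gene, was at 549.7 CPM in parous and 555 CPM in virgin cells. Its share was 48.9% in parous cells (CI 47.1 to 50.8%) and 48.0% in virgin cells (CI 46.0 to 50%). The Cd8a log2 ratio was -0.01 on total UMIs and 0.11 after median-of-ratios scaling, so its direction turned with the scaling, while that of Cd8b1 was -0.29 there. That scaling accounts for the median of all 11913 genes, which lay at a log2 ratio of -0.13. Without clusters 4 and 5, which are almost wholly parous, the log2 ratios were -0.27 for Cd8a and -0.33 for Cd8b1, so that both genes were then lower in parous cells by a like amount.

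A ratio of both coreceptor genes within the same cells does not depend on the total UMIs. It is compared between groups of cells and says nothing of which transcript is more abundant, since capture can differ between genes. Cd8b1 made up 61.4% of CD8 UMIs in parous cells (11594 Cd8b1 and 7300 Cd8a UMIs, CI 60.7 to 62.1%) and 67.7% in virgin cells (23205 and 11068 UMIs, CI 67.2 to 68.2%). Without the Fcer1g Tyrobp cluster the parous share was 64.7% (CI 64.0 to 65.4%) and the virgin share 67.7%. Cells with a Cd8a UMI but none of Cd8b1, at 1400 UMIs, were 17% of parous cells (487, CI 15.6 to 18.4%) and 10.3% of virgin cells (256, CI 9.12 to 11.6%). Without that cluster they were 12.7% (CI 11.4 to 14.1%) and 10.3% (CI 9.09 to 11.5%). Without clusters 4 and 5, a choice made after the values were seen, the Cd8b1 share of CD8 UMIs was 66.9% in parous (CI 66.1 to 67.7%) and 67.8% in virgin cells (CI 67.3 to 68.3%). Cells with Cd8a alone were then 11.9% of parous (CI 10.5 to 13.3%) and 10.1% of virgin ones (CI 8.94 to 11.4%). The intervals of both measures overlapped, so most of the gap between whole libraries lay with these 2 clusters.

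**Figure D1:**
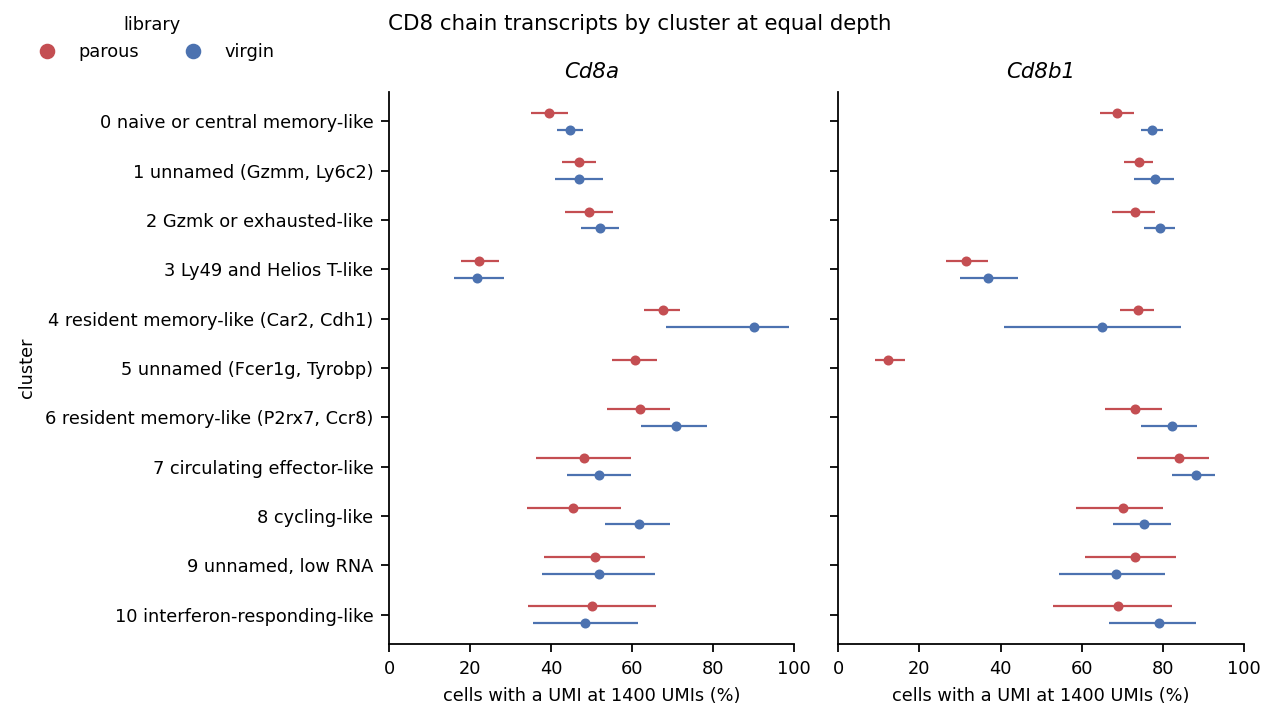
Share of cells with a Cd8a UMI (left) and a Cd8b1 UMI (right) after thinning to 1400 UMIs, by cluster, for parous (red, upper) and virgin (blue, lower) cells; bars are exact 95% intervals and groups under 20 cells are left out. In cluster 5, 60.8% of parous cells had Cd8a and 12.3% had Cd8b1, and in cluster 3 both shares were low in both libraries.

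The Fcer1g Tyrobp cluster stood apart in its coreceptor RNA. Its 322 parous cells had Cd8a at 795.5 CPM and Cd8b1 at 150.2 CPM. At 1400 UMIs, Cd8a was found in 60.8% of them (CI 55.1 to 66.2%) and Cd8b1 in 12.3% (CI 8.93 to 16.5%), the lowest Cd8b1 share of any cluster in either library. Cd8b1 made up 15.9% of the cluster's CD8 UMIs (203 Cd8b1 and 1075 Cd8a UMIs, CI 13.9 to 18.0%). In the other 10 clusters of CD8 T cells this share ran from 55.8% to 76.6% in parous cells and from 48.8%, in the 20 virgin cells of cluster 4, to 75% in virgin cells. The few Cd8b1 UMIs were unevenly spread, since 15 of the 322 cells had at least 4 of them and held 58.1%. Leaving those cells out brought Cd8b1 to 69.4 CPM.

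The cluster also stood apart cell by cell. Of the cells with at least 5 CD8 UMIs, no Cd8b1 UMI was found in 70 of 1713 parous cells (4.09%, CI 3.20 to 5.13%) and 10 of 2150 virgin cells (0.465%, CI 0.223 to 0.854%). Of the 70 parous cells, 58 lay in the Fcer1g Tyrobp cluster and 59 had an Fcer1g UMI, counts that are not independent since the cluster was picked by Fcer1g. Within that cluster, 58 of 105 such cells had no Cd8b1 (55.2%, CI 45.2 to 65%). Outside it the parous count was 12 of 1608 (0.746%, CI 0.386 to 1.30%), and the interval overlapped the virgin one. Virgin cells carry more UMIs, which makes a miss rarer, so the values were also taken for 5 CD8 UMIs drawn from each of these cells. The expected share without Cd8b1 was then 5.36% in parous and 1.40% in virgin cells, and 1.71% and 1.40% without the cluster. Within the cluster it was 61.2%. Of such cells, 0 of 105 in the cluster lacked Cd8a, against 135 of 1608 other parous cells and 152 of 2150 virgin cells. This was not particular to the cluster, since 0 of 61 parous cells of the cycling-like cluster (cluster 8) lacked it. In parous cells of the tissue-resident memory-like clusters, 8 of 325 (cluster 4) and 3 of 109 (cluster 6) did.

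**Figure D2:**
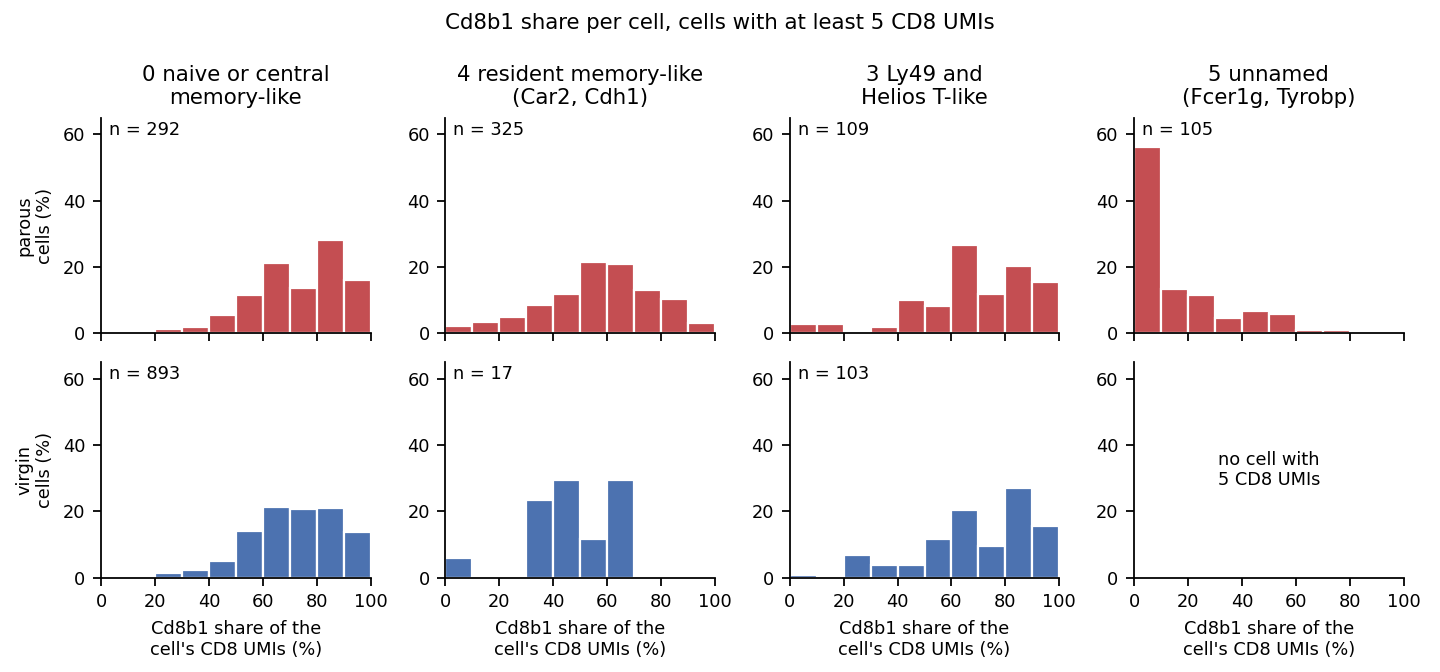
Histogram of the share of each cell's CD8 UMIs that came from Cd8b1, in cells with at least 5 CD8 UMIs, for 4 clusters in parous (upper row) and virgin (lower row) cells; n is the number of cells. In cluster 5, 56.2% of 105 parous cells fell in the lowest bin, against 2.15% of 325 in cluster 4, 2.75% of 109 in cluster 3 and none of 292 in cluster 0.

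Fcer1g encodes the Fc receptor gamma chain and Tyrobp the adaptor DAP12, both of which signal through the same type of motif as the CD3 chains. The cluster, picked by these genes, held Fcer1g at 3116 CPM and Tyrobp at 1527 CPM. The naive or central memory-like cells had Fcer1g at 5.31 CPM in the parous library and 0 UMIs in the virgin one. Natural killer or innate-like T cell markers, all 8 with a UMI, summed to 6267 CPM in the cluster and to 836 CPM over all parous cells. That list includes Fcer1g and Tyrobp, by which the cluster was picked and which make up much of the sum. It also includes Gzmc, which leads the cluster too, and the natural killer receptor gene Ncr1, at 54.8 CPM. The part of such cells in the result was not tested. Markers of gamma-delta T cells summed to 177 CPM in the cluster and to 46.3 CPM over all parous cells. The gamma constant genes Tcrg-C1, Tcrg-C2 and Tcrg-C4 were at 31.1, 65.1 and 72.5 CPM in the cluster. Over all parous cells they were at 7.38, 18.8 and 14.9 CPM. Trdc, the delta constant gene that defines those cells, was at 5.18 CPM (7 UMIs) in the cluster and 2.94 CPM over all parous cells. Trac was at 272 CPM and in 31.6% of the cluster's cells. The part of gamma-delta T cells in the result was not tested. Of the myeloid markers, 5 of 7 had a UMI (summed 121 CPM in the cluster and 32.2 CPM over all parous cells), with Csf1r and Adgre1 at 0, and of the B cell markers 1 of 5 did, at 8.88 CPM. Epithelial markers, 2 of 5 with a UMI and Krt8 and Krt14 at 0, summed to 72.5 CPM in the cluster and 13.1 CPM over all parous cells, and their part was not tested. The 28 parous cells of the myeloid-like cluster had Cd8b1 in 50% at 1400 UMIs, more than the Fcer1g Tyrobp cluster, but 71.4% of them had a Cd3e UMI unthinned and doublets were not removed, so they do not measure free Cd8b1 RNA.

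The Ly49 and Helios T-like cluster, named for Klra receptor genes and Ikzf2, was low in both coreceptor genes rather than in Cd8b1 alone. Its Cd8a level was 233 CPM in parous and 261 CPM in virgin cells, the lowest among clusters of at least 50 CD8 T cells in each library. Cd8b1 was at 379.5 CPM in parous and 557 CPM in virgin cells. At 1400 UMIs, 55.0% of its parous cells (CI 49.4 to 60.5%) and 50% of its virgin cells (CI 42.6 to 57.4%) had neither transcript, against 21.5% of all parous and 14.3% of all virgin cells. The medians of 5926 UMIs in its parous cells and 9348 in its virgin cells lay above those of the libraries. The Cd8b1 share of CD8 UMIs was 61.9% in parous (CI 59.1 to 64.7%) and 68.1% in virgin cells (CI 65.7 to 70.4%).

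Cells of this cluster also divided by Fcer1g and Tyrobp, in a split chosen after the values were seen. With at least 2 UMIs of these genes, the Cd8b1 share was 40.5% in 135 parous cells (CI 34.0 to 47.3%) and 56.2% in 57 virgin cells (CI 49.5 to 62.8%). With none, it was 67.9% in 161 parous cells (CI 64.7 to 70.9%) and 70.2% in 111 virgin cells (CI 67.5 to 72.8%). With 1 UMI, it was 53.7% in 26 parous cells (CI 42.3 to 64.7%) and 69.2% in 16 virgin cells (CI 59.4 to 77.9%). In this cluster a lower Cd8b1 share thus stood beside Fcer1g and Tyrobp RNA in both libraries, in virgin cells only from 2 UMIs up. Within the Fcer1g Tyrobp cluster too few cells lacked these transcripts to tell. The share there was 15.7% in 306 parous cells with at least 2 UMIs of these genes (CI 13.7 to 17.9%). It was 42.9% in the 6 with 1 UMI (CI 17.7 to 71.1%) and 11.1% in the 10 with none (CI 3.11 to 26.1%). In the Ly49 and Helios T-like cluster Cd8a was also lower in the cells with these transcripts, at 164 against 289 CPM in parous cells and 177 against 312 CPM in virgin cells.

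The tissue-resident memory-like clusters had the highest Cd8a levels among clusters of at least 50 cells. Cluster 6, led by Ccr8, P2rx7 and Zfp683, had 917.5 CPM in 166 parous cells and 1241 CPM in 131 virgin cells, and cluster 4 had 884 CPM in 459 parous cells. With Cd8b1 at 1159 CPM in parous and 1384 CPM in virgin cells of cluster 6, the Cd8b1 share was 55.8% (CI 53.0 to 58.7%) and 52.7% (CI 50.6 to 54.9%). In parous cells of cluster 4 it was 55.9% (CI 54.3 to 57.6%). Both genes were thus above their library levels in these clusters, Cd8a by more than Cd8b1. The circulating effector-like cluster lay at the other end, with Cd8b1 at 1588.5 CPM in 77 parous and 1734 CPM in 164 virgin cells and shares of 76.6% in parous and 75% in virgin cells. In the naive or central memory-like cluster the shares were 72.4% in parous and 70.3% in virgin cells, whose intervals (70.7 to 74.0% and 69.4 to 71.1%) overlapped.

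The CD3 chain genes varied less between clusters than the coreceptor genes, whose levels ran over a 3.93-fold (Cd8a) and a 10.6-fold range (Cd8b1) in parous and a 4.76-fold and a 3.11-fold range in virgin clusters. Cd3d, the delta chain gene, ran from 849.9 to 1229 CPM over the parous clusters of at least 50 cells and from 824 to 1184 CPM over the virgin ones, a 1.45-fold and a 1.44-fold range. Cd3e, the epsilon chain gene, ran from 699 to 1823 CPM in parous and from 806 to 1330 CPM in virgin clusters. Cd3g, the gamma chain gene, ran from 689.5 to 2561 CPM in parous and from 605 to 1174 CPM in virgin clusters, a 3.71-fold and a 1.94-fold range. Cd3e and Cd3g were lowest in the Ly49 and Helios T-like cluster in both libraries. In the parous library both were highest in the Fcer1g Tyrobp cluster, and in the virgin library both were highest in the Gzmk or exhausted-like cluster (cluster 2).

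The high Cd3g level set the Fcer1g Tyrobp cluster apart from every other parous cluster. At 2561 CPM its interval lay above that of cluster 4, the next highest, at 1568 CPM. Cd3g was found in 93.4% of its cells at 1400 UMIs (CI 90 to 95.8%) and Cd3e in 90.8% (CI 87.1 to 93.8%), against 73.4% and 76.1% of all parous cells. Cd3g made up 46.2% of the cluster's CD3 UMIs (CI 45.0 to 47.3%) and Cd3d 20.9% (CI 20 to 21.9%). In the other parous clusters Cd3g ran from 28.6% to 37.7% and Cd3d from 26.5% to 40.5% of CD3 UMIs. The zeta chain gene Cd247, which is not one of the 9, went the other way, with 158 CPM in this cluster and 177 to 311 CPM in the other parous clusters of CD8 T cells. The Fc receptor gamma chain is known to pair with receptors in the place of zeta, and whether it did so here was not tested. In the Ly49 and Helios T-like cluster, Cd247 was higher in cells with at least 2 Fcer1g and Tyrobp UMIs than with none. It was at 189 against 167 CPM in parous cells and 255 against 213 CPM in virgin cells.

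**Figure D3:**
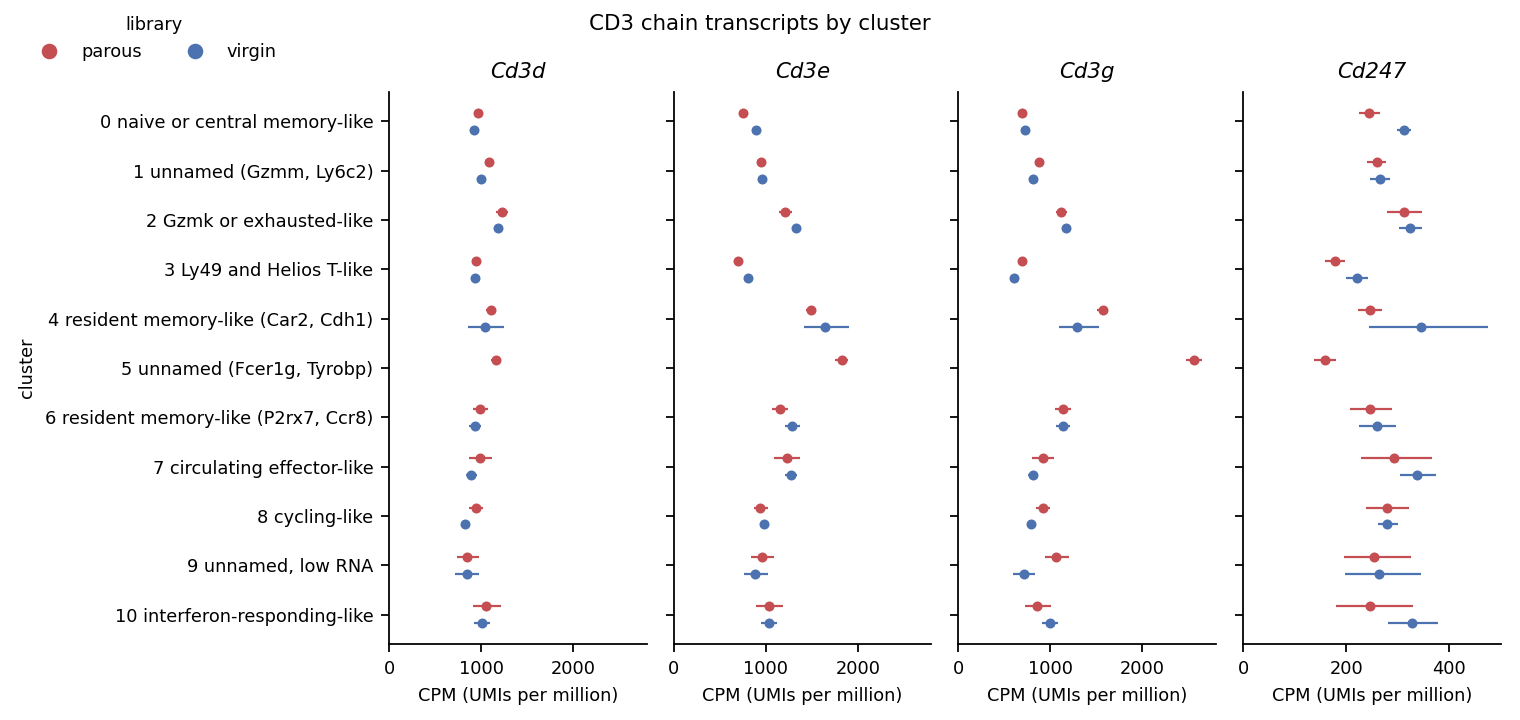
CPM of Cd3d, Cd3e, Cd3g and the zeta chain gene Cd247 by cluster, for parous (red, upper) and virgin (blue, lower) cells, with exact 95% Poisson intervals; groups under 20 cells are left out and the Cd247 axis has its own scale. In cluster 5, Cd3g reached 2561 CPM and Cd3e 1823 CPM, while Cd247 was at 158 CPM.

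Between the libraries, Cd3g was the CD3 gene furthest apart, with 1115.5 CPM in parous and 825 CPM in virgin cells, a log2 ratio of 0.44 (1.35-fold higher). Without the Fcer1g Tyrobp cluster its log2 ratio was 0.21, and without clusters 4 and 5 it was 0.04. Cd3d was at 1049 CPM in parous and 953 CPM in virgin cells (log2 ratio 0.14), and Cd3e at 1074 and 1008 CPM (log2 ratio 0.09). Without clusters 4 and 5 the log2 ratio was 0.10 for Cd3d and -0.15 for Cd3e, whose direction turned. Of the CD3 genes only Cd3e overlaps other annotated genes, Gm48719 and Gm48720, and these held 175 UMIs over all barcodes.

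The promoters of the CD3 genes are shown because Cd3g and Cd3e stood far above the parous library in the Fcer1g Tyrobp cluster, while Cd3d, whose start lies 1.35 kb from that of Cd3g, stood little above it, at 1162 CPM (CI 1105 to 1221) against 1049 CPM. The sequences are the 250 bases before each start from RefSeq on GRCm38.p6, 5′ to 3′ on the strand of the gene, at chr9:44980432-44980681 (minus) for Cd3g, chr9:44981536-44981785 (plus) for Cd3d and chr9:45009612-45009861 (minus) for Cd3e. Capitals mark matches on either strand to 5 short motifs that are spelled out after the sequences.
Cd3g: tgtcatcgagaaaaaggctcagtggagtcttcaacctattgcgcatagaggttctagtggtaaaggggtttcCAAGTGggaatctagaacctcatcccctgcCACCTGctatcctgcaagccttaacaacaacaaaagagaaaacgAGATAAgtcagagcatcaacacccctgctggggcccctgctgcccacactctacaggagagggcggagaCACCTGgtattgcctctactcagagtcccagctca
Cd3d: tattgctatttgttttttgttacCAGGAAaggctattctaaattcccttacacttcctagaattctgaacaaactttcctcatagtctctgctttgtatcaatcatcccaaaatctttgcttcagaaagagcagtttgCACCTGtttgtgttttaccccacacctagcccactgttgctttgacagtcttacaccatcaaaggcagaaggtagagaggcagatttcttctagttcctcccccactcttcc
Cd3e: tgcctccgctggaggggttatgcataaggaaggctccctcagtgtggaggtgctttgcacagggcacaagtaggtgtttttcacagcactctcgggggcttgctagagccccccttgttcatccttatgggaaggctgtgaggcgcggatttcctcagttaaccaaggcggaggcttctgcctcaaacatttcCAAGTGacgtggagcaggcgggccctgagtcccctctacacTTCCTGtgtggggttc
None of these 3 windows held TATAAA, the letters of the TATA box, which most promoters of this length also lack (found in 12.4%). None held TGTGGT, the letters that RUNX factors bind, found in 14.0% of promoters. The E-box letters, CANNTG, occurred 3 times before Cd3g and once before each of Cd3d and Cd3e, and they occur in 66.2% of 32851 promoters of this length. The ETS letters, CAGGAA, found in 25.7% of promoters, occurred once before Cd3d and once before Cd3e, 16 bases from the RefSeq start. This Cd3e match lies inside the GENCODE gene model given above, which starts further upstream. The GATA letters, AGATAA, found in 9.99% of promoters, occurred once before Cd3g. No match overlapped another. Of the 9 genes, 5 had an entry in the promoter table. A match describes the letters and not a bound site.

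Of the receptor constant genes, Trac lay furthest apart between whole libraries. Trac, the alpha constant gene, was at 222 CPM in parous and 178 CPM in virgin cells, a log2 ratio of 0.32 (1.25-fold higher). Without clusters 4 and 5 it was 0.12, and Trbc2, at -0.26, then lay furthest apart. At 1400 UMIs Trac was seen in 26.3% of parous cells (CI 24.7 to 28.0%) and 22.5% of virgin cells (CI 20.8 to 24.2%). Its level ran from 131.5 CPM in the naive or central memory-like cluster to 343 CPM in cluster 4 over parous clusters. Over virgin clusters it ran from 150.0 CPM in the circulating effector-like cluster to 263 CPM in the Gzmk or exhausted-like cluster. Lck was at 555 CPM in parous and 620 CPM in virgin cells (log2 ratio -0.16, and -0.03 relative to the median gene). It varied 1.69-fold over parous and 1.71-fold over virgin clusters and was highest, in both libraries, in the circulating effector-like cluster, with 708 CPM in parous and 859 CPM in virgin cells. The Fcer1g Tyrobp cluster had Lck at 548 CPM, close to the parous library as a whole.

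**Figure D4:**
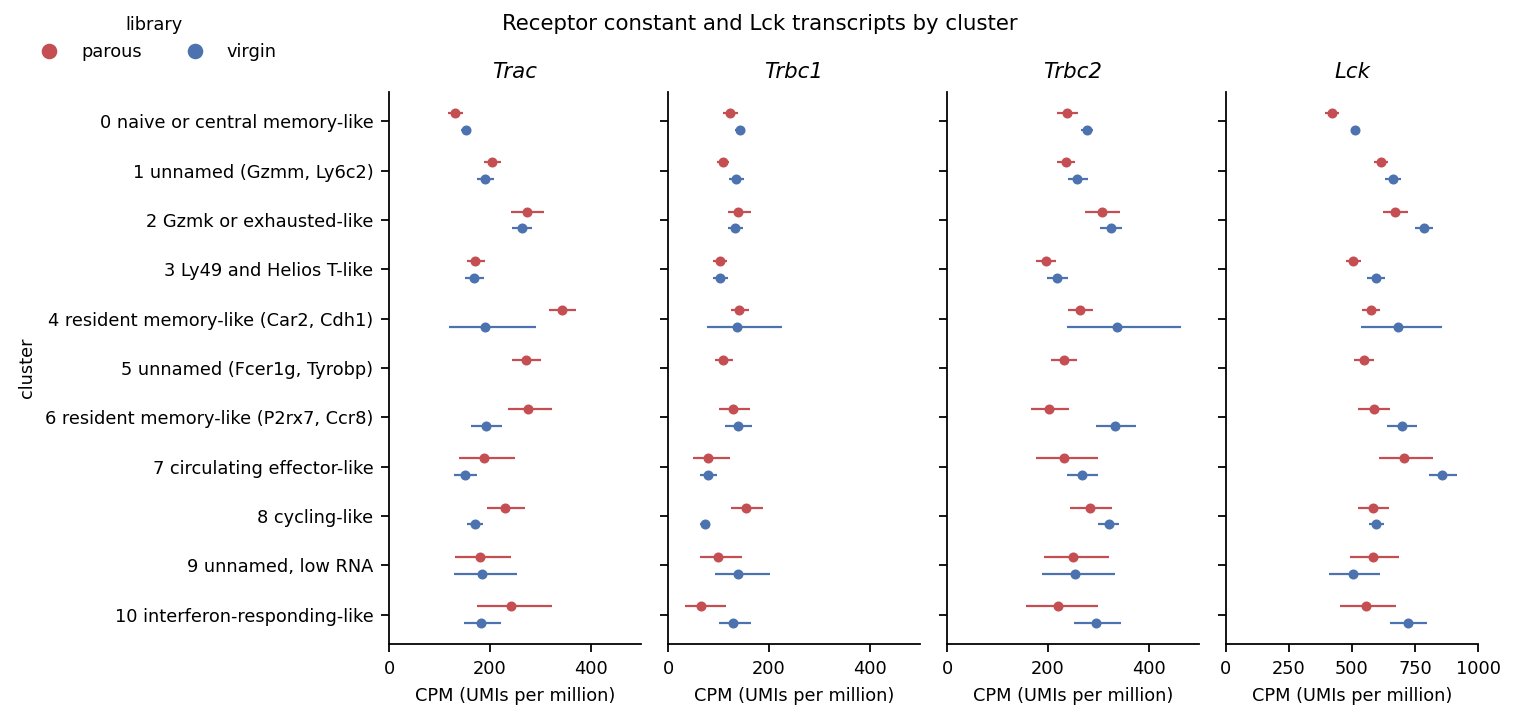
CPM of Trac, Trbc1, Trbc2 and Lck by cluster, for parous (red, upper) and virgin (blue, lower) cells, with exact 95% Poisson intervals; groups under 20 cells are left out and the Lck axis has its own scale. Trac was at 343 CPM in parous cells of cluster 4, and in cycling-like cells Trbc1 was at 154 CPM in parous and 73.2 CPM in virgin cells.

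Of the beta constant genes, within the uncertainty given with their sequences, Trbc1 was close between the libraries and Trbc2 was lower in parous cells. Trbc1 was at 119 CPM in parous and 122 CPM in virgin cells (log2 ratio -0.04, but 0.09 relative to the median gene). Trbc2 was at 240.1 CPM in parous and 284 CPM in virgin cells (log2 ratio -0.24, and -0.11 relative to the median gene). Cells with UMIs of exactly 1 of the genes numbered 1463 among parous and 1296 among virgin cells, and 22.4% (328, CI 20.3 to 24.6%) and 16.2% (210, CI 14.2 to 18.3%) of these carried Trbc1. Thinned to 1400 UMIs the shares were 28.2% in parous and 27.0% in virgin cells, so the gap was not seen at equal depth. Without thinning, 18.8% of parous and 31.8% of virgin cells had both genes. The Trbc1 share of Trbc UMIs was 33.2% in parous (CI 31.8 to 34.5%) and 30.1% in virgin cells (CI 29.1 to 31.1%).

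The joining segments gave a check on the Trbc counts. In the genome the Trbj1 segments lie before Trbc1 and the Trbj2 segments between Trbc1 and Trbc2, so a beta chain with a Trbj2 segment is spliced to Trbc2. Among cells with UMIs of a single Trbj group, Trbj2 was found in 84.3% of 121 parous cells with Trbc2 only (CI 76.6 to 90.3%) and in 80.1% of 236 such virgin cells (CI 74.4 to 85.0%). In cells with Trbc1 only it was still found in 53.1% of 49 parous (CI 38.3 to 67.5%) and 65.1% of 63 virgin cells (CI 52.0 to 76.7%). In many cells the gene given by the Trbc counts thus differed from the one that the joining segment points to.

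In the cycling-like cluster (cluster 8) of the virgin library, few of the cells with a single Trbc gene had Trbc1. Any Trbc1 UMI was found in 39.6% of its cells unthinned, against 40.2% of all virgin cells. When thinned, 11.9% (CI 7.22 to 18.2%) and 14.6% had one. The counts of cells with Trbc1 alone were not thinned. Median UMIs were 17675 in virgin and 7877.5 in parous cycling-like cells, so these counts are not at equal depth. Trbc1 alone was found in 4 of 91 virgin cycling-like cells with a single Trbc gene (4.4%, CI 1.21 to 10.9%). The Trbc1 share of Trbc UMIs there was 18.6% (CI 16.4 to 21%). In parous cycling-like cells Trbc1 alone was found in 5 of 33 (15.2%, CI 5.11 to 31.9%), and Trbc1 made up 35.3% of Trbc UMIs (CI 29.6 to 41.2%). Cells assigned to the variable gene Trbv31 had Trbc1 alone in 19 of 49 parous cells and 8 of 105 virgin cells. Without Trbv31 cells, the virgin cycling-like share was 4 of 55 (7.27%, CI 2.02 to 17.6%) and 22.4% of UMIs (CI 19.6 to 25.5%). Cells of 1 clone share their beta chain, so these cells are not independent, and clone size was not tested here.

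Over whole libraries, 0 of the 9 genes was at least 1.5-fold higher in parous cells and 0 was at least 1.5-fold lower. Over the 11913 genes that reached 10 UMIs in both libraries, 6.54% were that much higher and 12.3% that much lower. The largest differences were the 1.35-fold higher Cd3g and the 1.33-fold lower Cd8b1.

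Within the 8 clusters with at least 50 cells of each library, the Cd8b1 level was lower in parous cells in 8 of 8, with log2 ratios from -0.55 in the Ly49 and Helios T-like cluster to -0.10 in the cycling-like cluster. The 2405 genes that reached 10 UMIs in both libraries in each of these clusters, all 9 genes among them, give the background. Lower in parous cells in 8 of 8 were 10.6% of them, and lower in at least 7 of 8 were 25.2%. Relative to the median gene of each cluster, which lay between -0.15 and 0.09, Cd8b1 was also lower in 8 of 8, as were 6.49% of the 2405 genes. Cd8a was lower in 7 of 8, by up to 0.45 on the log2 scale in the naive or central memory-like cluster, and in 6 of 8 relative to the median gene. For Cd8b1 the interval lay below 0 in 5 of 8 clusters and held 0 in 3. For Cd8a it lay below 0 in 3, held 0 in 4 and lay above 0 in 1. So within shared clusters the ratios of both coreceptor genes were mostly below 0, for Cd8a often within counting error, and neither was lower by more throughout. The Cd8a tally of 7 of 8 is a common one, reached by 25.2% of the genes. The Cd8b1 share of CD8 UMIs was higher in parous cells in 4 of 8 clusters (0, 6, 7 and 8), where Cd8a was lower by more than Cd8b1. It was lower in the other 4 (1, 2, 3 and 9), and the intervals were apart in 2, clusters 3 and 9.

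Of the other genes, Cd3d was higher in parous cells in 8 of 8 shared clusters, with log2 ratios of 0.01 to 0.20, as were 8.57% of the 2405 genes. Cd3g was higher in 5 of 8. Relative to the median gene both Cd3d and Cd3g were higher in 8 of 8, as were 10.9% of the 2405 genes. Trbc2 was lower in 8 of 8, but relative to the median gene in 5 of 8. Its log2 ratio of -0.72 in cluster 6 was the lowest of the 9 genes in any of these clusters. Lck was lower in 7 of 8 and Cd3e in 7 of 8, each in 6 of 8 relative to the median gene.

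**Figure D5:**
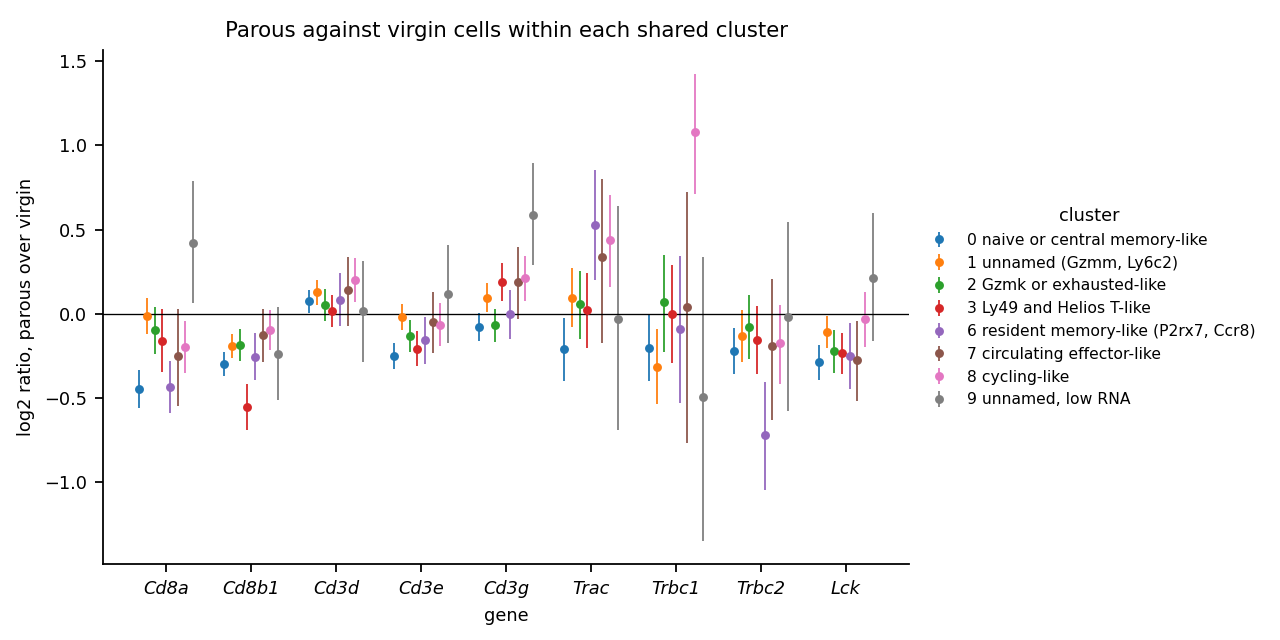
Log2 ratio of CPM, parous over virgin, for each of the 9 genes within the 8 clusters that held at least 50 cells of each library (colours), with exact 95% intervals for counting error. All 8 Cd8b1 points lie below 0, from -0.55 to -0.10, and the Trbc1 point of the cycling-like cluster lies highest at 1.08.

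Of 38 listed receptor signalling genes, 2 were at least 1.5-fold higher in parous cells, the inhibitory adaptors Lax1 (93.0 CPM in parous and 52.6 CPM in virgin cells) and Sla2 (92.9 and 53.8 CPM), and 0 were that much lower. The share higher is near the 6.54% of all measured genes, and 12.3% of those were that much lower. The list's median log2 ratio was -0.22, beside -0.13 over all genes. Zap70, the kinase that binds phosphorylated CD3 chains, was at 164 CPM in parous and 157 CPM in virgin cells, and Fyn, a kinase of the same family as Lck, at 258 and 220.5 CPM. Of the innate-type adaptors and kinases, 3 of 4 measured genes were at least 1.5-fold higher, namely Fcer1g (383 CPM in parous and 21.2 CPM in virgin cells), Tyrobp (188 and 14.0 CPM) and the kinase Lyn (32.2 and 6.82 CPM), and 1 further listed gene, Syk, was too low to be measured. The Fcer1g Tyrobp cluster, picked by this gene and Tyrobp, held 4211 of the 5090 parous Fcer1g UMIs.

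Of 14 transcription factors known to act on the Cd8 locus, 3 were at least 1.5-fold lower in parous cells and 0 were that much higher, beside 12.3% and 6.54% of all measured genes. The lower ones were Lef1 (172.5 CPM in parous and 326 CPM in virgin cells), Tcf7 (176 and 290.0 CPM) and Ikzf1 (167 and 263 CPM). Lef1 and Tcf7 also mark naive cells, whose cluster was smaller in the parous library, and the part of that difference was not tested. The list's median log2 ratio was -0.17. Runx3, which maintains Cd8 expression in killer T cells, was at 167 CPM in parous and 127 CPM in virgin cells. In the Fcer1g Tyrobp cluster, where Cd8b1 was lowest, Runx3 was at 283 CPM. In parous cells of cluster 4, where Cd8b1 was at 1122 CPM, Runx3 was at 246 CPM. A link between these genes was not tested.

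Over the 19 library-by-cluster groups of at least 50 cells, the genes whose levels went most closely with Cd8b1 were Themis (Pearson correlation 0.92), Cd247 (0.90), Fam104a (0.88), Kcnn4 (0.88) and Irf4 (0.85), out of 5755 genes. Those that ran most against it were Fcer1g (-0.86), Bcl2l11 (-0.82) and Ikzf2 (-0.81). The genes closest to Cd8a were Nedd9 (0.88), Cxcr6 (0.86), Aup1 (0.85), Aplp2 (0.84) and Itm2b (0.83). Between Cd8a and Cd8b1 the value was 0.25, and between Cd3g and Cd3e 0.88. These are descriptions over groups that share libraries and depth. The parous Fcer1g Tyrobp cluster, picked by Fcer1g and Tyrobp, is among the groups, with the lowest Cd8b1 and the highest Cd3g and Cd3e levels. How far the correlations rest on that group was not tested.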

How the data were processed

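The authors deposited each library as a matrix of raw UMI counts. Per the file headers it came from Cell Ranger 7.0.0. The genome build was mm10, per the submitters' processing notes, where R 4.4.2 and Seurat are named with no step given. How barcodes were called as cells is not given in the sources used here. The members and lists were chosen with earlier results of these data known.

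A barcode counted as a cell from 500 genes and 1000 UMIs up, with mitochondrial UMIs under 10%, which removed 1908 parous and 15 virgin barcodes. Scrublet (expected rate 0.06) marked 0.0662% of parous and 0.438% of virgin cells, was taken not to have worked, and removed none. Virgin UMIs were thinned to 58.7% for clustering. Clustering left out the 9 genes together with receptor segment, antibody, ribosomal protein and mitochondrial genes. It used 2000 variable genes, 30 components, 15 neighbours and Leiden resolution 0.8 (scanpy 1.11.5, leidenalg 0.10.2), without integration. Cluster names needed at least 3 markers 2-fold above other cells and seen in 10% of the cluster's cells. They were withheld where the 10 leading genes held none of them or more of another type, and may differ from the study's own. The low-RNA cluster (cluster 9) had 159 parous and 59 virgin cells.

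Trbv31 was assigned to a cell from 2 of its UMIs up, where these were 66.7% or more of all its Trbv UMIs. CPM came from summed UMIs, log2 ratios had 0.5 added to each count, and intervals were Clopper-Pearson for shares, Poisson for counts and conditional binomial for ratios (scipy 1.17.1). The 9 genes are all described; from the lists, genes at least 1.5-fold apart (up to 4 each way) and Cd247, Zap70, Fyn and Runx3 are named, with the 5 genes most like Cd8a and Cd8b1 and the 3 least like Cd8b1 among genes averaging at least 20 CPM. The likeness of Cd3g and Cd3e was added after the data were seen. The computations were tested on simulated counts. Alternatives covered scaling, weighting, depth, cell filter, clustering and the cells compared.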

Additional observations from a re-analysis of the deposited data

Results flagged for a closer look

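For 3 of the 9 genes, the parous cells lay higher in one cluster and lower in another, with each interval clear of 0, and the difference between the clusters was itself not tested. Cd8a had a log2 ratio of parous over virgin of 0.42 in the low-RNA cluster (cluster 9), against -0.45 in the naive or central memory-like cluster. Trac had a log2 ratio of 0.53 in the tissue-resident memory-like cluster 6, against -0.21 in the naive or central memory-like cluster. Trbc1 had a log2 ratio of 1.08 in the cycling-like cluster, where it was at 154 CPM in parous and 73.2 CPM in virgin cells, and -0.32 in the cluster led by Gzmm and Ly6c2.

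Coreceptor RNA was also present in the barcodes that the cell filter left out. In 1908 parous barcodes with a median of 600.0 UMIs, Cd8b1 made up 58.9% of CD8 UMIs (interval 56.6 to 61.3%), and in 15 virgin barcodes 70.0% (7 Cd8b1 and 3 Cd8a UMIs, interval 34.8 to 93.3%). At least 1 UMI of the 9 genes was found in 1816 of the parous and 13 of the virgin barcodes left out.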

How the results depend on the processing

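The parous Cd8b1 share of CD8 UMIs, 61.4%, was 58.7% as a mean over cells, 64.7% without the Fcer1g Tyrobp cluster, 66.9% without clusters 4 and 5 and 60.1% with cells thinned to 1400 UMIs, and the virgin share, 67.7%, was 68.6% when thinned and 67.8% without clusters 4 and 5. It was lower in parous cells in all of these, with overlapping intervals without clusters 4 and 5, a setting added after the data were seen. In the Fcer1g Tyrobp cluster the share was 15.9%. In 285 parous cells taken by an Fcer1g and a Tyrobp UMI instead of by cluster, it was 20.2%. The Trbc1 share of cells with 1 Trbc gene was 28.2% in parous and 27.0% in virgin cells when thinned, and 19.2% and 13.7% with at least 2 UMIs of the gene. The counts of 0 of 9 genes past 1.5-fold held under every scaling, weighting, depth, filter and choice of cells tried. Of 18 shares of cells with a UMI, 17 stayed within their intervals with another random seed, and all 18 moved at 2500 UMIs or unthinned, where 7 and 4 of 9 genes kept the order of the libraries. No paired analysis was possible because each group was 1 library. A UMI at 1400 UMIs stands for 714 CPM, so a share of cells without one is no count of cells that lack the gene.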
